A study of Solenopsis invicta with 32 samples.

Results

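In *Solenopsis invicta*, the red imported fire ant, 120 of 16314 measured genes had a lower level in the ovaries of overwintered gynes than in those of spring-reared gynes while their level in the brain was not lower to the same degree. They were chosen on their measured values, in counts scaled to the library's total of gene counts (CPM, over 1e+06 counts). A member had a median of at least 2 CPM over the spring-reared ovaries, a spring-reared level at least 2 times the overwintered level in ovary, and a ratio under 1.5 in brain, each ratio being taken between group medians with 0.1 CPM added. The genes at or above the 2 CPM level in spring-reared ovary numbered 8426, of which the members were 1.42%. Both ovary conditions were met by 178 genes, and 58 of these were left out because their brain ratio was 1.5 or more.

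The study compared overwintered with spring-reared gynes in a search for genes regulating plasticity in queen weight. All gynes carried the supergene genotype SB/SB and came from monogyne colonies, which have a single egg-laying queen. Brain and ovary of 16 gynes, 1 from each colony, gave 32 Smart-seq2 libraries, a low-input method that copies polyadenylated RNA, with 8 libraries in each of 4 groups. The input was 1.6 ng of RNA for a brain library and 8.0 ng for an ovary library, extracted with different kits, so organ and preparation cannot be told apart. The labels give no age and do not describe the overwintering. All overwintered gynes have colony codes starting with M18 and all spring-reared gynes have codes starting with BHM, so treatment and colony source cannot be told apart either. Each replicate is a separate animal and colony.

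A gyne is a young queen that has not yet founded a colony. Ant ovaries are built of ovarioles, in which germline-derived nurse cells feed a growing oocyte inside a layer of somatic follicle cells, so the RNA of a whole ovary mixes germline, follicle, sheath and tracheal cells. The supergene is a stretch of suppressed recombination on the social chromosome whose variants are associated with colony form and queen traits. The gene identifiers are not paired with gene names in the files, and 0 of 16314 matched the RefSeq gene table, so no role is given to any member and no organ or cell type marker could be checked. At most 4 members are given by identifier, and the others by their level. In such bulk samples, fewer cells of a type and less RNA per cell cannot be told apart.

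Gene counts per library ran from 9612985 to 23656547. On principal components, spring-reared ovary 6, overwintered ovaries 1 and 5 and spring-reared brains 4 and 7 stood apart from their groups. Spring-reared ovary 6 lay at -6.52 on the first component of the ovaries, inside the range of the overwintered ovaries, -40.0 to 2.04, and away from the other spring-reared ovaries, at 16.6 to 29.3. The number of genes with a count was 10675 to 11333 in overwintered brains and 9854 to 10569 in spring-reared brains, and in ovaries 11144 to 11596 and 10558 to 11212. The part of this in the results was not tested. Counts of members from the tests are given with and without them.

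The members were mostly genes of low level. The median over members of the spring-reared ovary median was 8.59 CPM, against 48.4 CPM over all genes at or above 2 CPM there. In spring-reared ovary, 64 members had a median under 10 CPM, which was 53.3% of the members and 19.8% of all genes at that level. At the other end, 8 members reached 100 CPM, which was 6.67% of the members and 31.9% of all genes at that level. In overwintered ovary the median over members was 3.37 CPM. In brain it was 8.97 CPM in spring-reared gynes and 9.71 CPM in overwintered ones. The median over members was thus similar in spring-reared ovary and in both brain groups. This does not hold member by member, since the brain levels covered a wide span, given below.

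**Figure D1:**
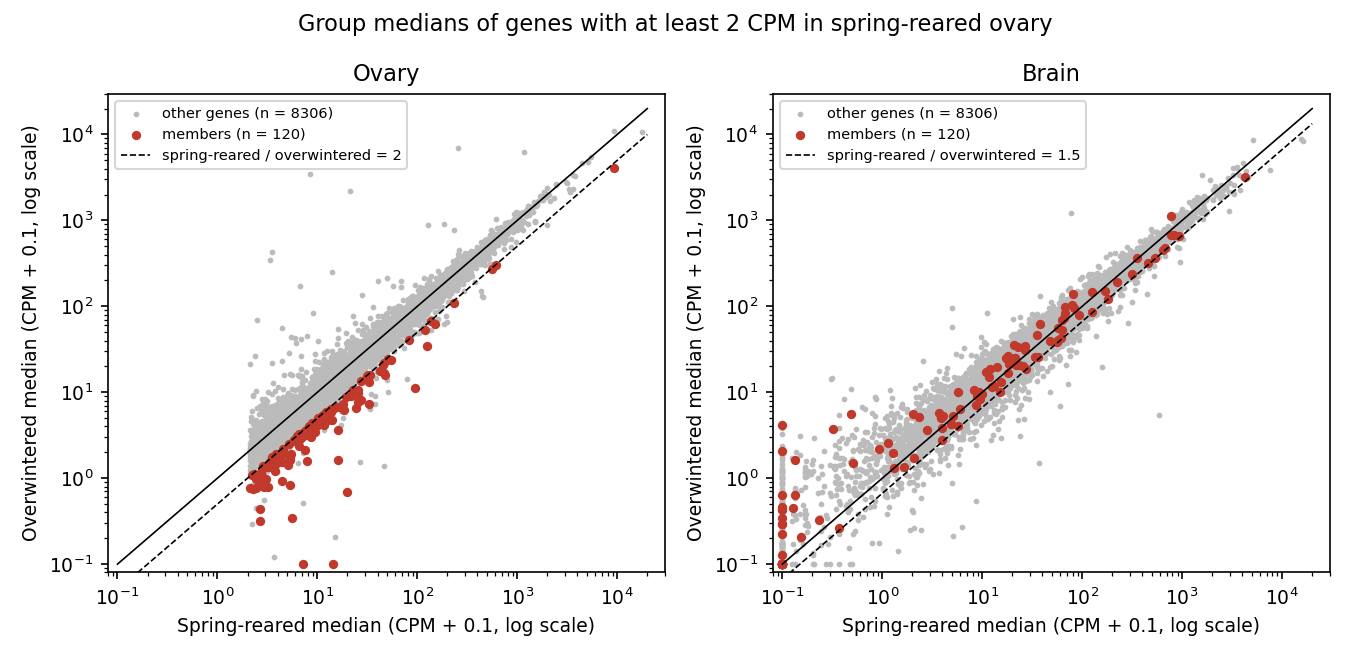
Group medians of the 120 members (red points) and of all genes with a spring-reared ovary median of at least 2 CPM (grey), in CPM + 0.1 on log axes, overwintered on the vertical axis against spring-reared on the horizontal axis, for ovary and for brain. The members lie at or under the 2-fold line in ovary by the rule that chose them. In brain they are spread around the line of equality, where the rule kept only ratios under 1.5. There 17 members sit at 0 CPM in both treatments.

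The ovary ratio was 2.39 at its median, and most members lay close to the limit. It was 2 to 2.5 in 71 members, 2.5 to 4 in 35, 4 to 10 in 10 and 10 or more in 4. In 38 members it was no more than 2.2, and 72 genes that met the other conditions lay just outside, between 1.8 and 2. The 3 members nearest the limit had ratios of 2.00, 2.01 and 2.01, and the 3 nearest genes outside it 1.997, 1.994 and 1.992. For the brain limit the 3 nearest members had ratios of 1.493, 1.479 and 1.473 and the 3 nearest genes outside 1.502, 1.545 and 1.552. For the level in spring-reared ovary, the 3 nearest members had medians of 2.03, 2.11 and 2.19 CPM and the 3 nearest genes outside 1.95, 1.91 and 1.85 CPM. Membership thus turned on small differences at each limit. Leaving out any 1 of the 32 libraries and applying the rule again kept 73 of the 120 members in every case.

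Across single ovaries, the groups overlapped for most members. In 11 members all 8 spring-reared ovaries lay above all 8 overwintered ovaries, called separated here, and in the other 109 the groups overlapped. Over all genes at or above 2 CPM, 73 were separated in this direction, which is 0.866%. The rule used the same ovaries, so nothing is read from the difference. All 8 overwintered ovaries lay below the spring-reared median in 66 members, 7 did in 32, 6 did in 13 and 5 did in 9. Of the 11 separated members, 9 were among the 73 that stayed without any 1 library.

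The member of highest level among the 11 separated ones was SINVBB1_09382. Its level in spring-reared ovaries was 500.1 CPM at the lowest, 609.8 CPM at the median and 867 CPM at the highest. In overwintered ovaries it was 167.8, 303.6 and 408.8 CPM in the same order. Every overwintered ovary lay below every spring-reared one, and the ratio of 2.01 placed the gene just inside the limit. It was not among the 73 members that stayed without any 1 library. Its edgeR log2 fold change, overwintered over spring-reared, was -1.04 (SE 0.18) in ovary and -0.60 in brain. In brain the level was 638, 933 and 1080 CPM in spring-reared gynes and 484, 654 and 892 CPM in overwintered gynes, so the brain groups overlapped and the overwintered median was lower there too.

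Of the other members at 100 CPM or more, 2 were separated in ovary. One had 76.7 to 412 CPM in spring-reared ovaries with a median of 125.8 CPM, and 9.65 to 62.6 CPM in overwintered ovaries with a median of 34.5 CPM. Its brain level was higher than its ovary level in both treatments, with medians of 650.3 in spring-reared and 456 CPM in overwintered brains. The other had 74.1 to 292 in spring-reared and 40.2 to 60.1 CPM in overwintered ovaries, with medians of 119.8 and 52.3 CPM. Its brain medians ran the other way, at 17.6 CPM in spring-reared gynes and 24.5 CPM in overwintered ones. The separated members thus included genes with brain medians lower in overwintered gynes and genes with brain medians higher in them.

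At lower levels, separated members included 4 that were under 0.5 CPM in brain. One of them had no count in any of the 16 brains. Its ovary level was 5.85 to 9.66 CPM in spring-reared gynes, median 6.89, and 1.38 to 4.82 CPM in overwintered gynes, median 2.91. Another had 18.9 to 27.3 CPM in spring-reared ovaries and 7.16 to 11.5 CPM in overwintered ovaries, medians 22.4 and 10.2. Neither had a brain median above 0.351 CPM in either treatment.

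**Figure D2:**
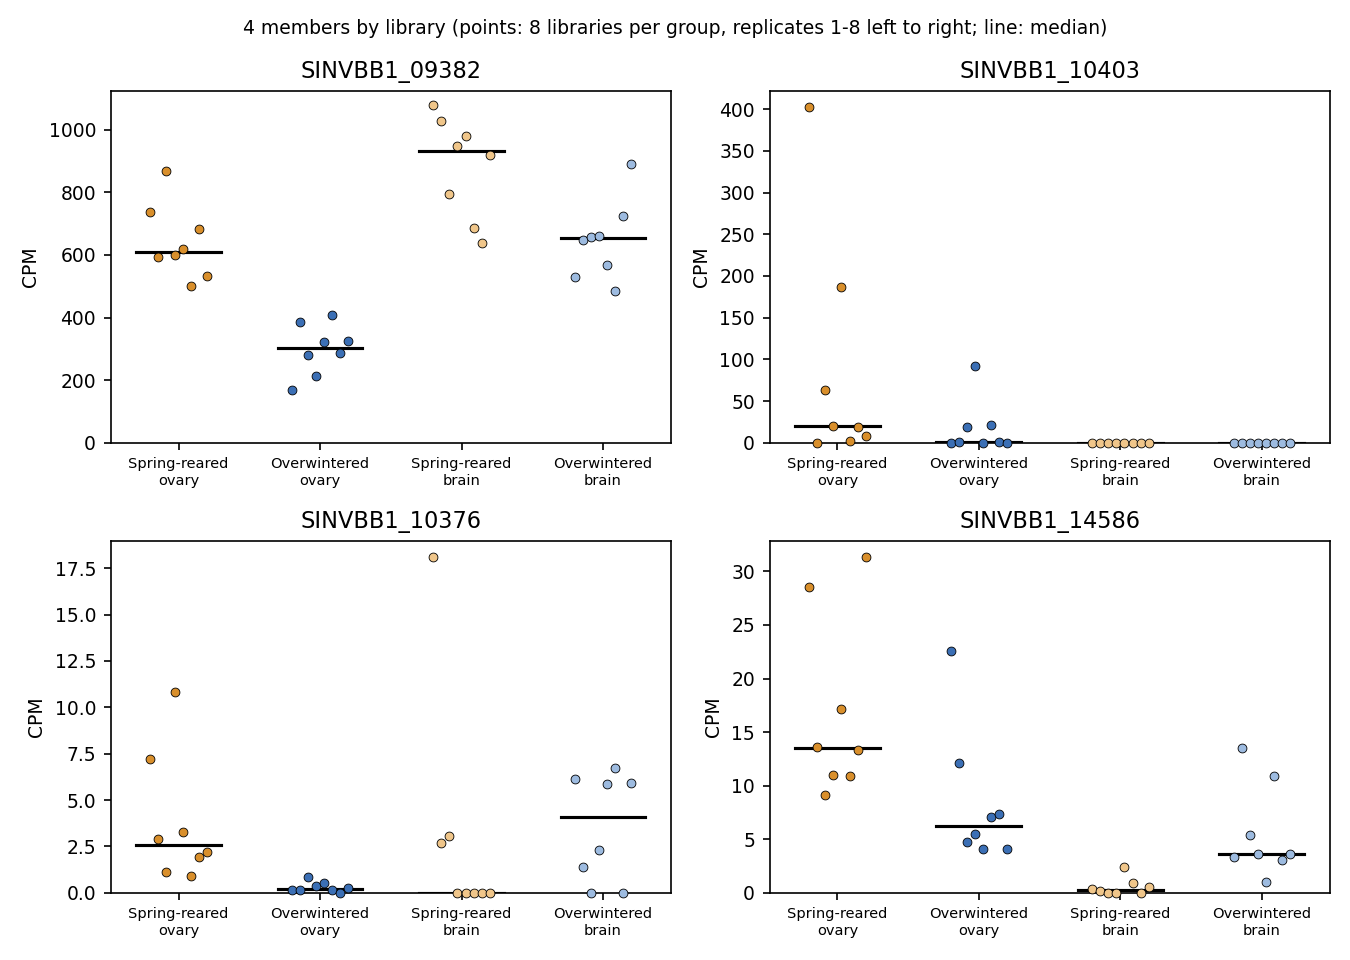
CPM in each library (points, 8 per group) of the 4 members given by identifier, with the group median as a line, on linear axes that differ between panels. SINVBB1_09382 is separated between the ovary groups, SINVBB1_10403 is high in single ovaries of both treatments and at 0 in every brain, and SINVBB1_14586 overlaps between the ovary groups.

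Summed over the 120 members, spring-reared ovaries held 8535 CPM at the lowest, 13292 CPM at the median and 16497 CPM at the highest. Overwintered ovaries held 4604, 5887 and 10966 CPM. The ratio of the medians was 2.26, and the ranges overlapped. In brain the sum was 11243, 13101 and 15003 CPM in spring-reared gynes and 9778, 11344 and 11937 CPM in overwintered gynes. A single member made up most of the ovary sum. It had 5998, 9278 and 13357 CPM in spring-reared ovaries and 2967, 4072 and 9526 CPM in overwintered ovaries. Overwintered ovaries 5, 6 and 8, at 9526, 6631 and 6927 CPM, lay within the spring-reared range, and the other 5 lay below all of it. Without this member the sum was 2537, 3821 and 5244 in spring-reared and 1440, 1665 and 2449 CPM in overwintered ovaries, and the groups did not overlap. The rule had chosen every summed gene for a ratio of at least 2 in these ovaries, so neither the ratio of the sums nor this separation is a result. In brain the same member had a median of 0 CPM in both treatments and 7.96 CPM at the most, in spring-reared brain 4, one of the libraries that stood apart.

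The edgeR quasi-likelihood test across all genes was set beside these values as a description, because the rule had used the same contrasts. In ovary 118 of the 120 members passed its filter on low counts. At an adjusted p under 0.05, 64 of the 118 were lower in overwintered ovaries, or 54.2%, where 5.28% of all 9361 genes tested were lower. Of all genes tested 5.30% were higher, a direction that the choice of members left out. The median log2 fold change was -1.12 over the members tested and 0.03 over all genes tested. All 11 separated members were among the 64, and 48 of the 64 were among the members that stayed without any 1 library. Without the libraries that stood apart, 60 of 120 members tested were lower, as were 505 of all 9469 genes tested. The replicate numbers did not pair the treatments. With them as a block, 38 of 118 members were lower. Of all 9361 genes tested, 209 were lower with this block and 494 without it.

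Not every member was lower in the ovary alone. In brain 89 members passed the filter, and 9 of them (10.1%) were lower in overwintered brains at an adjusted p under 0.05, against 3.79% of all genes tested. Their brain ratios of medians were 1.15 to 1.47, below the limit of 1.5 that the rule set, and 8 of the 9 were also among the 64 lower in ovary. One member was higher in overwintered brains, where 1.61% of all genes were. A single model of the 4 groups took brain and ovary libraries as independent, although both came from the same gynes. In it the overwintering difference was more negative in ovary than in brain in 13 of 119 members (10.9%), against 1.09% of all genes. By medians, 10 of these 13 were higher in overwintered than in spring-reared brains and 2 were lower. With gyne as a block, the model of the 4 groups gave 8 of 119 members, against 40 of all 10448 genes. Without the libraries that stood apart it gave 12 of 120, against 134 of all 10581 genes. In brain edgeR then called 7 of 90 members, each lower in overwintered gynes, where 195 of all 9770 genes were lower. These counts are read no further, since both contrasts chose the members.

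The brain levels of the members covered a wide span that the ovary conditions had not fixed. In 82 members, or 68.3%, at least 1 brain group had a median of 2 CPM or more, against 93.1% of all genes at or above 2 CPM in spring-reared ovary. In 29 members, or 24.2%, both brain medians were under 0.5 CPM, against 3.86% of all genes at that level. Those genes were not matched to the members for ovary level. Spring-reared ovary medians were under 10 CPM in 53.3% of members and 19.8% of those genes. The brain condition also used these brain medians, so the shares are a description. Of the 58 genes left out for a brain ratio of 1.5 or more, 2 (3.45%) were under 0.5 CPM in brain. At such levels the ratio depends on the 0.1 CPM added, and 17 members had a brain median of 0 CPM in both treatments, so that their ratio of 1 was set by that addition alone. For these 17, the brain condition excluded nothing, and 5 members had no brain count in any library. The remaining 9 members lay between 0.5 and 2 CPM.

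The 29 members at low brain level had an ovary ratio of 2.71 at the median, and the 82 at 2 CPM or more had 2.30. Among the 29 was the most abundant member. The next in level had 18.1, 95.5 and 186 CPM in spring-reared ovaries and 2.92, 11.1 and 52.5 CPM in overwintered ovaries, a ratio of 8.55. Its brain counts were 458 over the 8 spring-reared brains, with 28.9 CPM in the highest, and 24 over the 8 overwintered brains. A median of 0 CPM in brain therefore stood beside counts in single brain libraries for this member.

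Among the 82 members at 2 CPM or more in brain, spring-reared brains were higher in 39 and lower in 43, and the brain ratio was 0.966 at its median, against 0.896 over all genes of that brain level at or above 2 CPM in spring-reared ovary. Within 1.5-fold either way lay 68. At least 2 times higher in overwintered brains were 7. The rule had removed brain ratios of 1.5 or more from the members and not from the other genes. The brain split, median and counts are therefore a description, given without shares over all genes, and are read no further. In spring-reared gynes the ratio of the ovary level to the brain level, with 0.1 CPM added, was 0.601 at the median of the 82 and 1.31 over the 7841 genes of that brain level at or above 2 CPM in spring-reared ovary. The ovary median was the higher in 27 of the 82 (32.9%), against 61.7% of those genes, and the brain level was at least 4 times the ovary level in 30 (36.6%), against 7.82%. In overwintered gynes the ratio was 0.214, against 1.14, the ovary median was the higher in 12 (14.6%), against 55.9%, and the brain level was at least 4 times the ovary level in 48 (58.5%), against 9.59%. The rule chose these ovaries as low and both ovary groups entered it, so the shares and the 15 members whose order changed between the treatments are a description.

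The member highest in brain was among the lower ones in ovary. It had 3649, 4304 and 5273 CPM in spring-reared brains and 2476, 3217 and 3478 CPM in overwintered brains, with no overlap. In ovary it had 4.09, 7.61 and 13.7 CPM in spring-reared gynes and 1.43, 3.51 and 6.53 CPM in overwintered ones, with overlap. Its brain ratio of 1.34 was under the limit.

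Between organs, edgeR compared ovary with brain in each treatment, using ovary libraries that had chosen the members. Brain and ovary of the same gyne were taken as independent. In spring-reared gynes 112 members were tested, of which 34 (30.4%) were higher in ovary and 46 (41.1%) lower, against 37.2% and 37.5% of all genes. In overwintered gynes 103 members were tested, of which 22 (21.4%) were higher in ovary and 62 (60.2%) lower, against 38.0% and 39.4%. With gyne as a block, 42 of 112 members were higher in ovary in spring-reared gynes, against 3738 of all 9624 genes. In overwintered gynes 22 of 103 were, against 3801 of all 9896. Without the libraries that stood apart, 38 of 116 were higher in spring-reared gynes, against 3599 of all 9789 genes. In overwintered gynes 24 of 108 were, against 3782 of all 10172. The overwintered ovaries had chosen the members as low, so the difference between the treatments is not read as a result.

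The 2 members with the largest ratio of overwintered to spring-reared brain medians, among those of at least 2 CPM in overwintered brain, were SINVBB1_10376 and SINVBB1_14586. SINVBB1_14586 had 0, 0.22 and 2.37 CPM in spring-reared brains and 0.98, 3.63 and 13.5 CPM in overwintered brains, and the groups overlapped. Its ovary level ran in the other direction, at 9.15, 13.5 and 31.3 in spring-reared and 4.04, 6.25 and 22.5 CPM in overwintered ovaries. The edgeR log2 fold change was 3.21 in brain and -1.01 (SE 0.35) in ovary, where the gene was not among the 64 members lower in overwintered gynes. This was the single member that edgeR placed higher in overwintered brains, and the brain call was lost in 12 of 23 other settings.

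SINVBB1_10376 was separated in ovary, with 0.89, 2.55 and 10.8 in spring-reared and 0, 0.21 and 0.85 CPM in overwintered ovaries, and a log2 fold change of -3.45 (SE 0.62). These levels rested on 429 counts over 8 spring-reared and 43 over 8 overwintered ovaries. In spring-reared brains it had 18.1, 2.66 and 3.06 CPM in replicates 1, 2 and 3 and 0 CPM in the other 5, and in overwintered brains 0, 4.08 and 6.74 CPM. The brain groups overlapped, with 427 counts in spring-reared and 355 in overwintered brains. The medians thus differed by far while the totals did not, and the edgeR log2 fold change in brain was 0.11, and -0.29 without the libraries that stood apart.

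Ranges within a treatment are given as a description, since the rule used the same ovary values and the part of the choice of members in these ranges was not tested. The highest spring-reared ovary was 4.11 times the lowest at the median over members, with 0.1 CPM added, and 1.62 times over all genes at or above 2 CPM. In overwintered ovaries the values were 5.05 and 1.97. A range of 10-fold or more within spring-reared ovaries was seen in 31 members (25.8%) and 2.21% of all genes, and within overwintered ovaries in 32 members (26.7%) and 3.16%. Among members under 10 CPM the median range was 6.48-fold, against 2.76-fold for all genes under 10 CPM, and among the 56 members at 10 CPM or more it was 3.40-fold, against 1.52-fold. In the tables of CPM that the authors deposited, 64 members (53.3%) were listed for ovary and 59 (49.2%) for brain, against 95.1% and 83.5% of all genes at or above 2 CPM in spring-reared ovary.

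**Figure D3:**
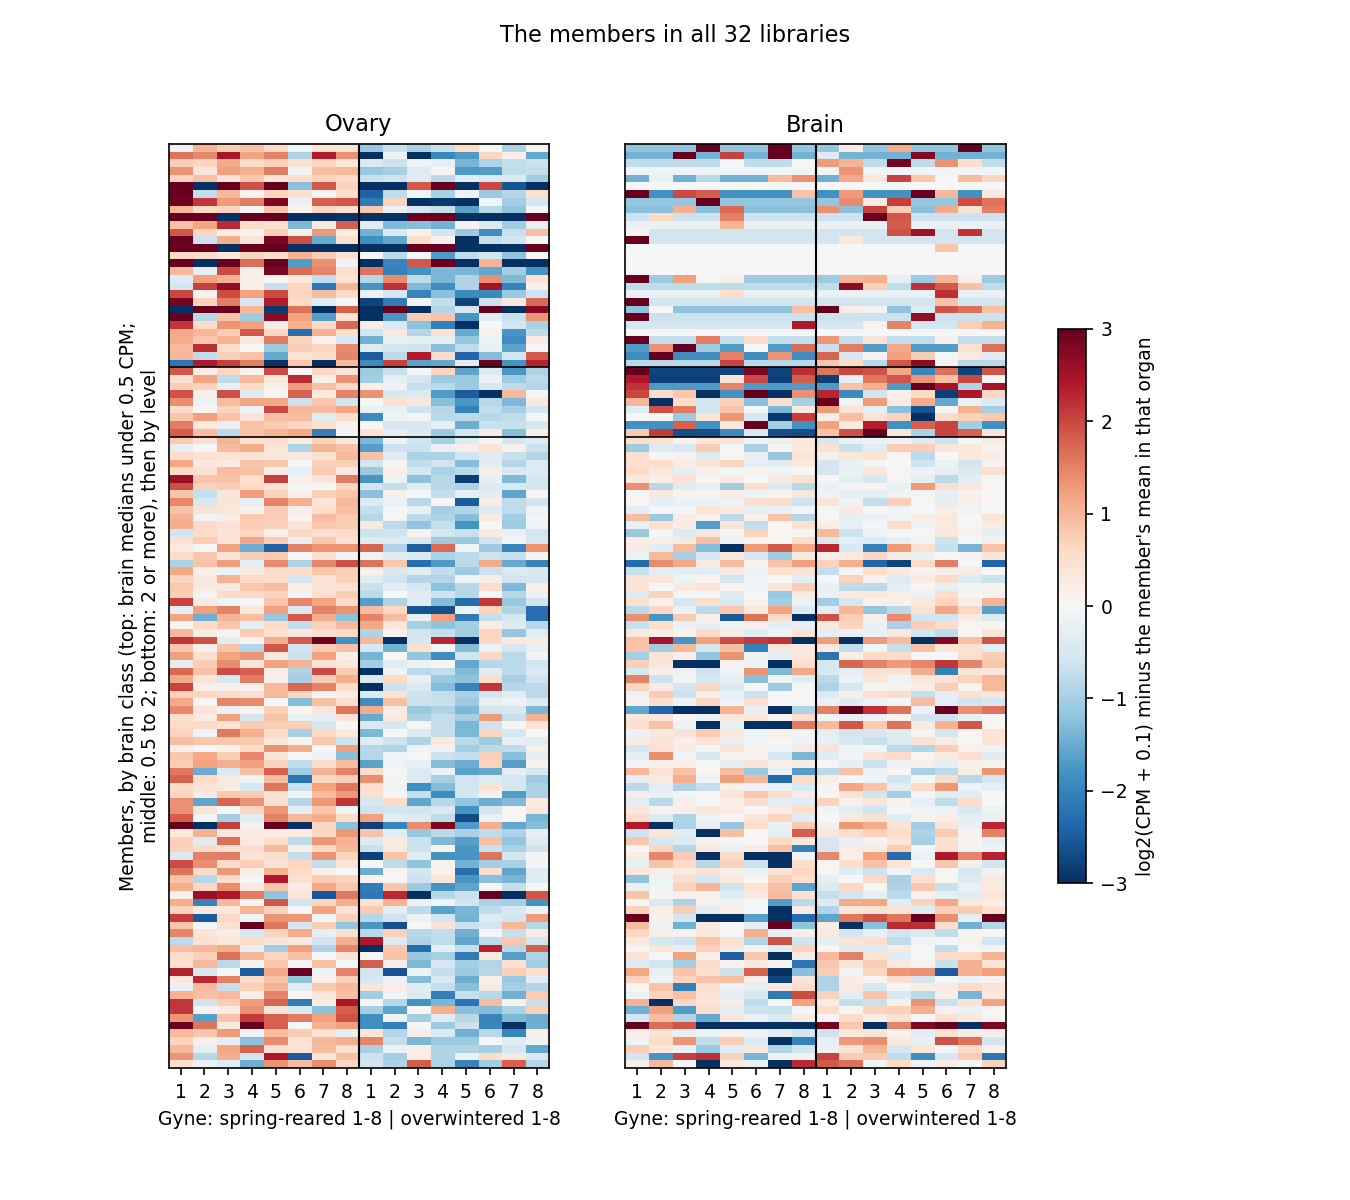
Difference from each member's mean over the libraries of its organ, in log2(CPM + 0.1), for the 120 members (vertical, by brain level class and then by ovary level) in the 32 libraries (horizontal, by group and replicate). Spring-reared ovaries are mostly above and overwintered ovaries mostly below the mean by the choice of members, single ovaries of either treatment depart from their group, and the brain groups show no such common division.

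SINVBB1_10403 was the member with the largest ovary ratio, 28.6, among those with an overwintered median above 0 CPM and a spring-reared median of at least 10 CPM. In spring-reared ovaries 1 to 8 it had 402, 0, 63.6, 20.5, 187, 2.15, 19.2 and 8.60 CPM. In overwintered ovaries 1 to 8 it had 0.26, 0.40, 19.2, 92.4, 0.13, 21.8, 0.80 and 0 CPM. High ovaries occurred in both treatments, and spring-reared ovary 2 was at 0 CPM, so the overwintered values lay inside the spring-reared span. Its edgeR log2 fold change was -2.34 with an SE of 1.45, and it was not among the 64 members lower in ovary. The ovary counts were 10127 in spring-reared and 2038 in overwintered gynes, and no brain held a count.

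Single members shared such patterns across gynes. Deviations from the group mean in log2(CPM + 0.1) were correlated over the 16 ovaries for each pair of members, and members linked by a Pearson r of at least 0.9 were joined, a grouping made after the values were seen. Of 7140 pairs 13 reached 0.9, where the median pair had r = 0.141, and they joined 17 members in 6 sets of 5, 3, 3, 2, 2 and 2. The points share libraries and depth, so r is a description of these ovaries.

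The tightest set was a pair with r = 0.994. Its first member had 28.3, 89.6, 41.5 and 62.4 CPM in spring-reared ovaries 1, 2, 4 and 5 and 26.1, 17.0 and 32.3 CPM in overwintered ovaries 3, 4 and 8. Its second member had 18.3, 33.9, 14.3 and 35.2 CPM in the same spring-reared ovaries and 18.9, 27.2 and 13.2 CPM in the same overwintered ovaries. In the other 9 ovaries each was at 0.1 CPM or less, with 1 and 0 counts in all. These genes were thus detected above that level in 4 of 8 spring-reared and 3 of 8 overwintered ovaries, and their ratios of 143 and 72.5, the highest of all members, came from a spring-reared median that lay between the high and the low ovaries and an overwintered median of 0 CPM. In brain the first was above 0 CPM in spring-reared gynes 2 and 5 and overwintered gynes 3 and 4, at 0.13 to 1.59 CPM, all of them gynes whose ovary was high. These values rested on 7 counts in spring-reared and 33 in overwintered brains, and the other gynes with a high ovary had 0 CPM in brain. The second was above 0 CPM only in the brain of overwintered gyne 6, at 0.084 CPM, whose ovary was at 0 CPM.

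A set of 3 held SINVBB1_10403 and 2 further members, with r from 0.917 to 0.981. One of these also had no count in any brain, and had 118 CPM in spring-reared ovary 1 and 44.0 CPM in spring-reared ovary 5, its highest ovaries. The other had 213 and 75.8 CPM in the same ovaries but was present in brain, with medians of 3.62 CPM in spring-reared gynes and 5.58 CPM in overwintered ones. The gene most like SINVBB1_10403 over the 16 ovaries was not a member, with r = 0.982. Its ovary medians were 46.2 and 1.27 CPM, and it was left out because brain medians of 0.967 and 0.584 CPM gave a ratio of 1.56.

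The set of 5 was high in spring-reared ovaries 2 and 3 and in overwintered ovaries 2, 6 and, for most of its members, 8, with r from 0.854 to 0.963. One of its members had 12.7 and 15.3 CPM in those spring-reared ovaries and 12.2 and 41.9 CPM in those overwintered ovaries, and 0 CPM in overwintered ovaries 1, 3 and 7. Another set of 3, with r from 0.846 to 0.931, was low in spring-reared ovaries 1, 4 and 6 and in overwintered ovaries 3, 4, 5, 7 and 8. One of its members was low in some of the same gynes in brain, with 19.3 CPM in spring-reared brain 1 and 18.6, 14.4 and 18.6 CPM in overwintered brains 3, 4 and 8, while other brains reached 275 CPM. In the remaining pairs, r was 0.921 and 0.907. The first pair had 71.1 and 36.4 CPM in overwintered ovary 6, more than any spring-reared ovary for both members. Over the 16 brains its members had r = 0.984, those of the second pair r = 0.241, and those of the set of 3 low in spring-reared ovaries 1, 4 and 6 had r from 0.585 to 0.779.

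**Figure D4:**
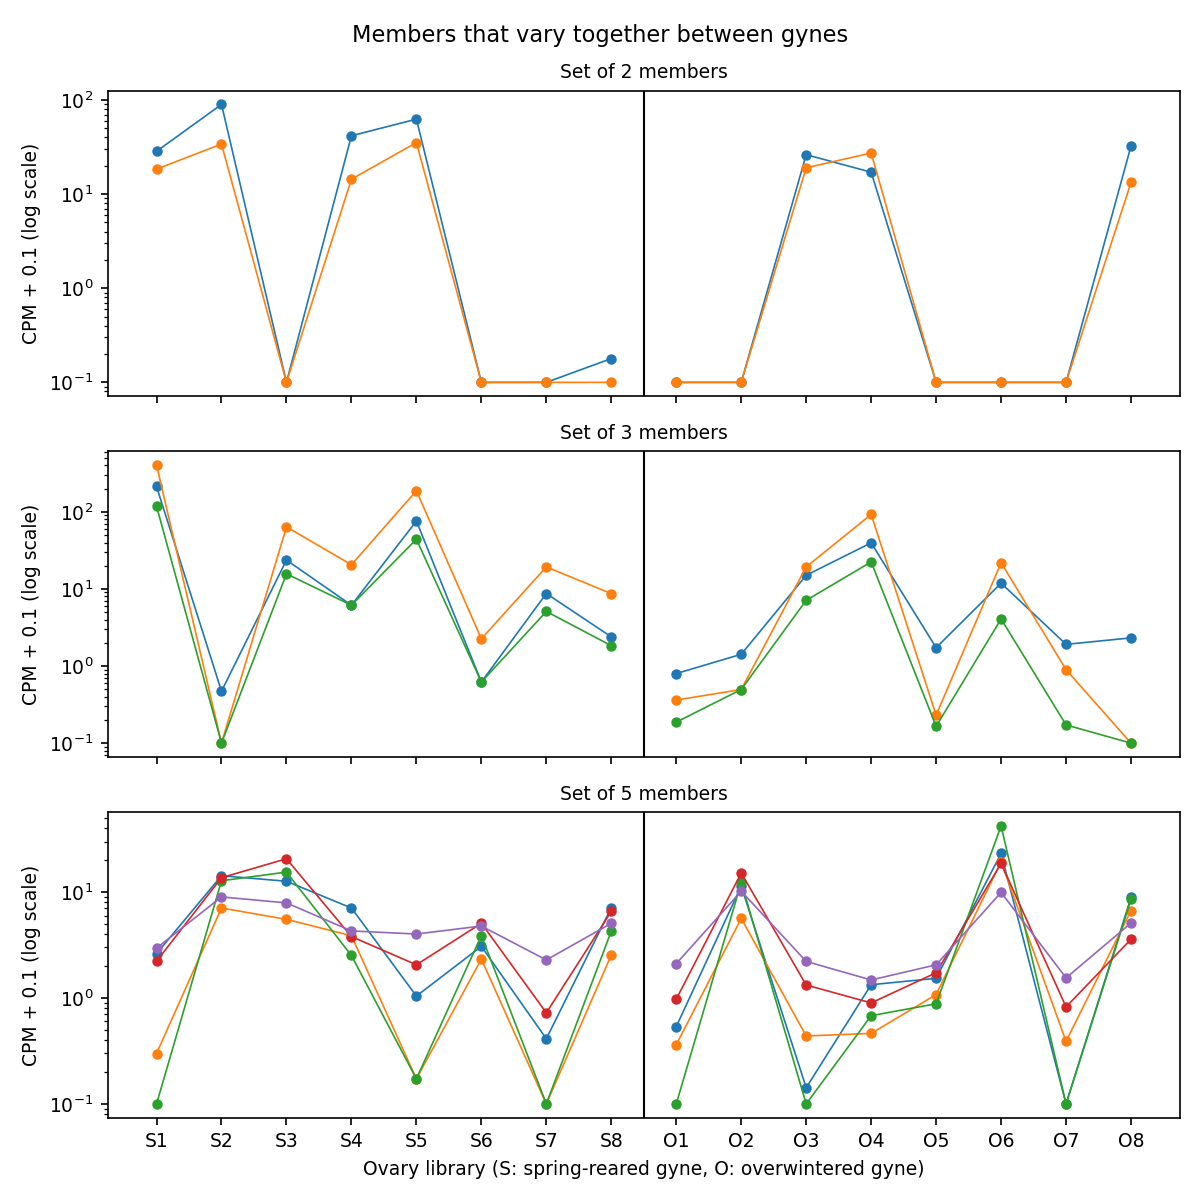
CPM in each of the 16 ovaries for 3 of the sets that varied together (2, 3 and 5 members), on a log scale with 0.1 CPM added, with lines joining the values of a member as a guide and no order among replicates. Members of a set are high in the same ovaries, and the high ovaries include overwintered as well as spring-reared gynes.

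How far the members' values extended to an ovary that had not chosen them was described by leaving out each ovary and applying the rule to the others. Each chosen gene in the left-out ovary was then placed above or below the midpoint between the group medians. Above is called the spring-reared side and below the overwintered side. The same was done for all genes, whichever group was higher, so their share does not measure likeness to a group. The rule then chose 110 to 159 genes, of which 95 to 115 were among the 120. In left-out spring-reared ovaries, the share on the spring-reared side was 43.3% to 74.4%, median 65.3%, against 45.8% to 60.9% of all genes at or above 2 CPM. In left-out overwintered ovaries, the share on the overwintered side was 51.3% to 90%, median 64.9%, against 39.4% to 87.6% of all such genes. It was above that of all genes in 6 of 8 spring-reared and 7 of 8 overwintered ovaries. The exceptions were spring-reared ovaries 2 and 6, at 58.2% and 43.3%, and overwintered ovary 6, at 51.3%. The chosen genes all had the higher median in spring-reared ovaries, which was not required of the other genes. These counts are therefore a description. In overwintered ovary 5, which gave 90%, 87.6% of all genes also lay below the midpoint. With members chosen on all libraries the share was 80% at the median over the 16 ovaries, and it was 65.3% for left-out ovaries.

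**Figure D5:**
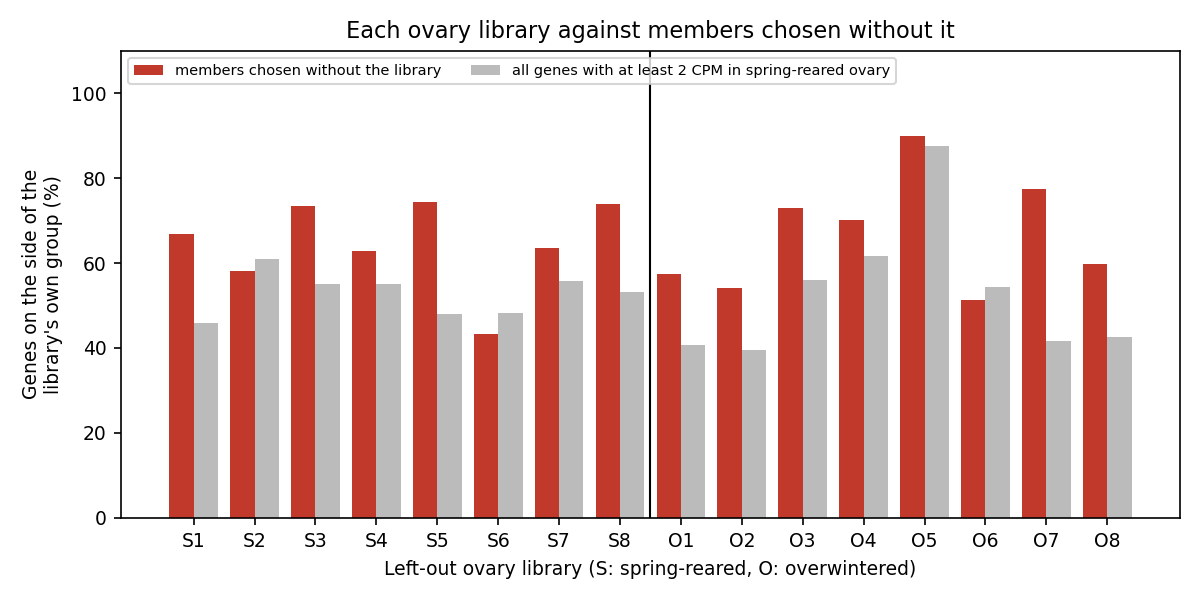
Share (%) of the chosen genes on the side of the library's own group in each left-out ovary, with members chosen without that ovary. Beside it is the same share over all genes with a spring-reared ovary median of at least 2 CPM. For every gene that side is above the midpoint of the group medians in spring-reared ovaries and below it in overwintered ovaries. Most left-out ovaries lie above the share of all genes, and spring-reared ovaries 2 and 6 and overwintered ovary 6 lie below it. Only the chosen genes were required to have the higher median in spring-reared ovaries, so the comparison is a description.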

How the data were processed

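The authors deposited whole-number gene counts for each library and tables of CPM. Per the submitters' processing notes the tools included Trim Galore 0.6.5, STAR 2.7.3a and edgeR, and their build is not given in the sources here. The count files have 1 count column, so strand was not used, and overlapping genes and near-identical copies cannot be separated. The 4 lines naming no gene were left out. The CPM used here were computed over the sum of gene counts, and the authors' deposited CPM were used only for which genes they list.

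Members were found by the rule in Python 3.11.15. The members and lists were chosen with earlier results of these data known. Counts were fitted in R 4.3.3 with edgeR 4.0.16 (TMM, filterByExpr, robust quasi-likelihood F-test, Benjamini-Hochberg over all genes tested, threshold 0.05), with DESeq2 1.42.0 and limma 3.58.1 (voom) as alternatives. The main edgeR fit was tested on simulated counts with known changes. That test did not cover the rule, the sets of members, the left-out ovaries or the alternative tools. At most 2 identifiers were named in each direction: the highest separated member and the largest ovary ratio at 10 CPM or more, and the 2 largest overwintered to spring-reared brain ratios at 2 CPM or more. Marker lists could not be used, as identifiers have no names.

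No libraries agreed within sampling noise (lowest chi-square per degree of freedom 18.7). Colony codes pair brain and ovary of a gyne. Their deviations from the group means had a mean r of 0.135 over 16 gynes, from -0.105 to 0.344, with 9 of 16 over 0.1.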

Additional observations from a re-analysis of the deposited data

Results flagged for a closer look

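Of 30 groups of 8 values examined, 6 held a value far from the others. The limit used would flag about 1 in 20 groups of normally distributed values. The groups here share libraries and include CPM of genes named for large ratios, some with many values at 0. The count is therefore not set against chance. SINVBB1_10403 had 402.3 CPM in spring-reared ovary 1, against 0 to 187.4 CPM in the other spring-reared ovaries, and 92.4 CPM in overwintered ovary 4, against 0 to 21.8 CPM in the other overwintered ovaries. SINVBB1_14586 had 22.5 CPM in overwintered ovary 1, against 4.04 to 12.1 CPM, and 2.37 CPM in spring-reared brain 5, against 0 to 0.929 CPM. SINVBB1_10376 had 18.1 CPM in spring-reared brain 1, against 0 to 3.06 CPM. Over all members, the median log2(CPM + 0.1) was 0.79 in overwintered ovary 5, one of the libraries that stood apart, against 1.93 to 2.49 in the other overwintered ovaries. In that ovary 87.6% of all genes at or above 2 CPM in spring-reared ovary lay below the midpoint of the group medians. Its TMM factor, 0.748, was the lowest of all libraries. Lying below the midpoint was thus not particular to the members. The part of this in the size of their low level was not tested. By edgeR's interaction term, the overwintering difference differed between organs in 13 of 119 members, each time more negative in ovary. It was more negative there in 1.09% of all genes tested, and the rule that chose the members had used both contrasts.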

How the results depend on the processing

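The number of member genes, 120 as reported, was 80 with 1 CPM added, 124 with 0.01, 105 with group means (71 shared), 88 with TMM-adjusted sizes (87 shared), 153 and 84 with a level of at least 1 and 5 CPM, 96 with a brain ratio under 1.2, 113 without the libraries that stood apart (79 shared), and 110 to 159 without 1 library. The share of members on their own group's side was 80% with members chosen on all libraries and 65.3% when the ovary was left out. The ratio of summed CPM, 2.26, was 2.10 to 2.36 under 4 other settings and 2.15 to 2.36 without 1 ovary. Without the most abundant member, an alternative chosen after seeing the data, it was 2.29.

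Members lower in overwintered ovaries, 64 as reported, were 38 with the replicate block, 38 to 75 over all other settings and 51 to 70 without 1 library. Over all genes tested the counts were 494 as reported, 209 with the replicate block, 673 with DESeq2 and 338 to 595 without 1 library. Members called in brain, 10 as reported, were 16 with DESeq2, 7 without the libraries that stood apart and 9 to 13 without 1 library. Over all genes, 154 were higher and 363 lower as reported, 328 and 539 with DESeq2, and 106 and 195 without the libraries that stood apart. Without 1 library, 81 to 202 were higher and 242 to 402 lower. The interaction, 13 as reported, gave 22 with DESeq2, 12 without the libraries that stood apart, 8 with gyne as the replicate block and 9 to 17 without 1 library. Over all genes, those more negative in ovary were 114 as reported, then 204, 134, 40 and 82 to 174 in the same order. Members higher in ovary than brain were 34 in spring-reared gynes (32 to 41 without 1 library, 42 with gyne as the replicate block) and 22 in overwintered gynes (21 to 25 without 1 library, 38 with no filter on low counts). Over all genes they were 3581 in spring-reared gynes (3570 to 3641 and 3738 in the same order). In overwintered gynes they were 3760 (3706 to 3857 and 4377). The cause of these shifts was not tested. Replicate numbers did not pair the treatments: the mean r of same-numbered libraries was -0.0860 in ovary (-0.221 to 0.168) and -0.0610 in brain (-0.279 to 0.0954), and 0 of 8 libraries correlated best with its own number in either organ. The brain log2 fold change of SINVBB1_10376, 0.11, was -0.29 without the libraries that stood apart, -0.0864 to 2.02 without 1 library and as high as 3.13 under other settings.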
